A study of Sus scrofa with 30 samples.

Results

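This account concerns 1213 wide H3K4me3 domains of pig 4-cell embryos in which the H3K4 demethylases KDM5B and KDM5C had been targeted by small interfering RNA (siRNA). A domain was a peak of 10 kb or wider in replicate 1 of the siKDM5BC 4-cell library, on chromosomes 1 to 18, that replicate 2 of the same treatment covered to 50% or more. Merged peaks of both untreated 4-cell libraries had to cover less than 50% of it. Of the 88330 peaks that siKDM5BC replicate 1 held on these chromosomes, 1464 were 10 kb or wider. Among those wide peaks, 1213 met the rule, 245 were covered to 50% or more in untreated embryos and 6 were not matched in replicate 2. The domains spanned 20.2 Mb, 0.891% of chromosomes 1 to 18. They were chosen by their siKDM5BC and untreated 4-cell values, so the difference between those groups is given as a description and was not tested.

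Native chromatin immunoprecipitation for very small cell numbers (ULI-NChIP-seq) had been applied to pig (Sus scrofa) oocytes and to embryos fertilised in vitro, with 2 libraries in each of 15 groups. The tested embryos received siRNA against both demethylases as zygotes and were taken at the 4-cell stage for H3K4me3. Their comparison group was untreated 4-cell embryos, since no library labelled with a control siRNA was among the samples, and an effect of injection itself cannot be told apart from that of the siRNA. H3K4me3 was also profiled in germinal vesicle (GV) and metaphase II (MII) oocytes, 1-cell, 2-cell and 8-cell embryos, morulae and blastocysts, and H3K27me3 in MII oocytes, 2-cell, 4-cell and 8-cell embryos, morulae and blastocysts. Breed, animals and the number of cells in each pool are not given in the labels, and nothing says whether replicates came from separate collections, so p-values measure the spread between these libraries, which may be technical.

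H3K4me3 is laid down by SET1 and MLL complexes and usually sits as a narrow peak at promoters that are active or ready for use. KDM5 enzymes remove it. Mammalian oocytes also carry broad H3K4me3 outside promoters, as described in mouse, and that broad form is lost in early embryos around genome activation, which in the pig takes place mainly at the 4-cell stage. H3K27me3 is placed by Polycomb repressive complex 2 and marks silent developmental genes.

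Each library was represented by a list of broad peaks with no read totals, so sequencing depth is unknown. H3K4me3 lists held 36713 to 117417 peaks on chromosomes 1 to 18 and covered 1.37% to 7.67% of them, with the highest share in siKDM5BC replicate 1 and the lowest in untreated 4-cell replicate 2. H3K27me3 lists covered 0.0553% to 4.33%. The lowest fold enrichment kept in a list was 2.70 and 2.86 in the siKDM5BC libraries, against 3.11 and 3.31 in untreated 4-cell libraries. With only peaks of fold 3.5 or more in all 4 lists, 1107 domains met the rule. That limit removes whole peaks and does not narrow those kept, so it does not make the lists equal. With only peaks of −log10 q of 3 or more, 699 met the rule, and with untreated cover under 25%, 591 did. The 1-cell libraries stood apart from each other, with 3.03% of the chromosomes covered in replicate 1 and 6.12% in replicate 2. Throughout, the measure is the percent of a domain's length under peaks in a library, called its cover, and not signal strength.

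The values that chose the domains are given first, as a description. Their width ran from 10001 to 85976 bp with a median of 13616 bp, and siKDM5BC replicate 2 covered a median of 90.5% of a domain. Median fold enrichment, the authors' value for each peak, was 3.93 (range 3.14 to 5.34) and median −log10 q was 3.24. Median cover was 100% by construction and 90.5% in siKDM5BC replicates 1 and 2, against 21.6% and 9.05% in untreated 4-cell replicates 1 and 2. Merged untreated peaks covered a median of 25.6%, and 145 domains had less than 10%. Untreated peaks meeting the domains had median widths of 818 and 693 bp, and a domain met a median of 3 and 2 of them. In siKDM5BC replicate 2 a domain met a median of 2 peaks, the longest piece having a median of 10522 bp. Over siKDM5BC replicate 1 peaks of any width, 36.1% met both cover conditions of the rule. The 245 other wide peaks were of similar width (median 12970 bp) with a higher median fold enrichment of 4.55.

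Values close to the thresholds were continuous. The domains just inside the width limit measured 10001 and 10003 bp and the peaks just outside it 9984 and 9983 bp. At the replicate 2 limit the nearest domains had 51.7% and 54.0% cover and the nearest peaks left out 49.8% and 48.5%. At the untreated limit they had 49.99% and 49.9% inside, against 50.04% and 50.4% outside.

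**Figure D1:**
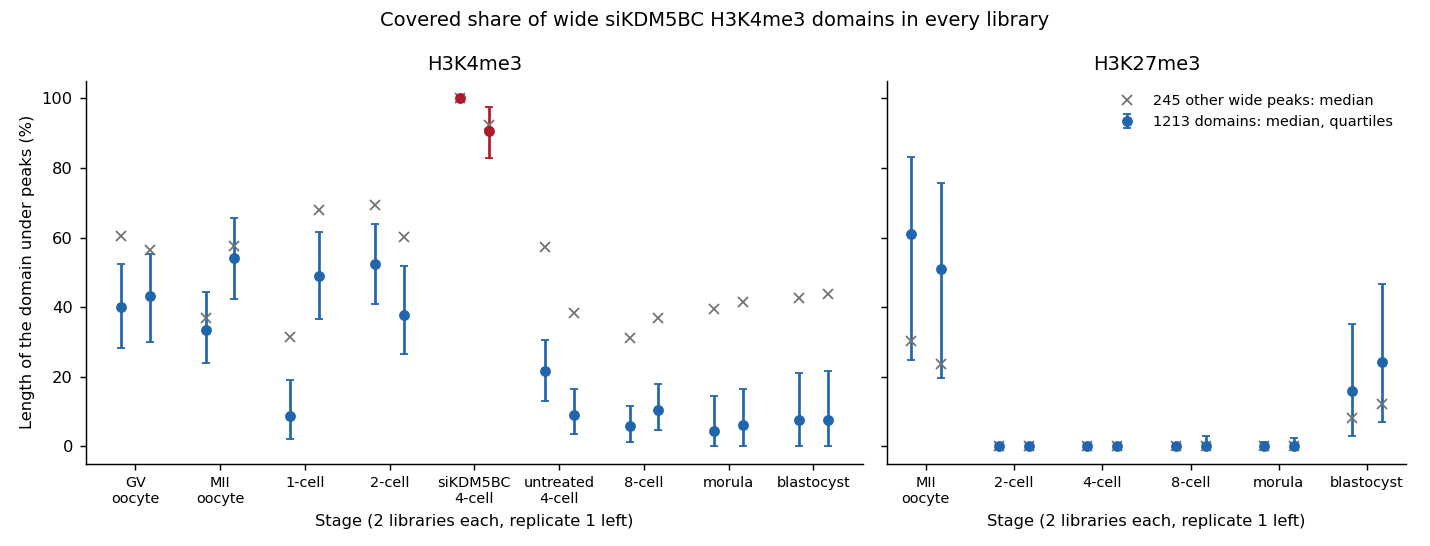
Percent of each domain's length under H3K4me3 peaks (left) and H3K27me3 peaks (right) in each library, with points at the median of 1213 domains, bars from the first to the third quartile and crosses at the median of the 245 other wide peaks. H3K4me3 cover of the domains is high in siKDM5BC (red, fixed by the rule), intermediate in oocytes and 2-cell embryos and near 4% to 10% from the 8-cell stage on, while H3K27me3 is high in MII oocytes, at 0 in the medians from the 2-cell stage to the morula and partly present in blastocysts.

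The widest domain met the potassium-chloride cotransporter gene SLC12A7 and the Wnt pathway inhibitor gene NKD2 (chromosome 16, 79334430 to 79420405, 85976 bp). Untreated 4-cell peaks covered 35.5% and 14.5% of it, against 98.5% in siKDM5BC replicate 2. Next in width were domains in BAHCC1 (chromosome 12, 1326226 to 1400676), in the guanine nucleotide exchange factor gene MCF2L (chromosome 11, 78434840 to 78506769) and in the receptor phosphatase gene PTPRF (chromosome 6, 167668068 to 167739175). The others of the 8 widest met the histone deacetylase gene HDAC4 (chromosome 15, 138389344 to 138455629), PRDM16, a transcription factor gene of brown fat and cardiac development (chromosome 6, 64711977 to 64775711), the stretch of ARFGAP1, COL20A1 and the acetylcholine receptor subunit gene CHRNA4 (chromosome 17, 62391057 to 62453693), and the transporter gene SLC6A7 with the calmodulin kinase gene CAMK2A (chromosome 2, 151240236 to 151301987). Untreated cover of these 8 ran from 20.5% to 41.1% in replicate 1 and from 5.33% to 19.7% in replicate 2. In PTPRF, cover was 98.3% in siKDM5BC replicate 2, against 26.5% and 15.0% in untreated embryos. It had been 64.8% and 66.4% in GV oocytes, 56.2% and 75.3% in MII oocytes and 65.4% and 51.8% in 2-cell embryos. H3K27me3 covered 89.4% and 84.2% of the same stretch in MII oocytes.

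The domains lay toward the ends of chromosomes. Of the 1213, 855 (70.5%) were centred within 5 Mb of a chromosome end, against 42.0% of the other wide peaks, 17.8% of all siKDM5BC replicate 1 peaks and 7.94% of 10 kb windows. Median distance to the nearer end was 2.38 Mb, against 9.03 Mb for the other wide peaks, 21.7 Mb for all peaks and 31.7 Mb for windows. On chromosomes 13 to 18, which are acrocentric in the pig, the last 5 Mb held 225 domains and the first 5 Mb 23. All 23 lay on chromosome 18, which held 4 in its last 5 Mb, while chromosomes 13 to 17 held 53, 41, 48, 38 and 41 in their last 5 Mb and 0 in their first. On chromosomes 1 to 12, 383 lay in the first and 224 in the last 5 Mb of 908. These are descriptions of position, and gene density and base composition along the chromosomes were not tested.

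**Figure D2:**
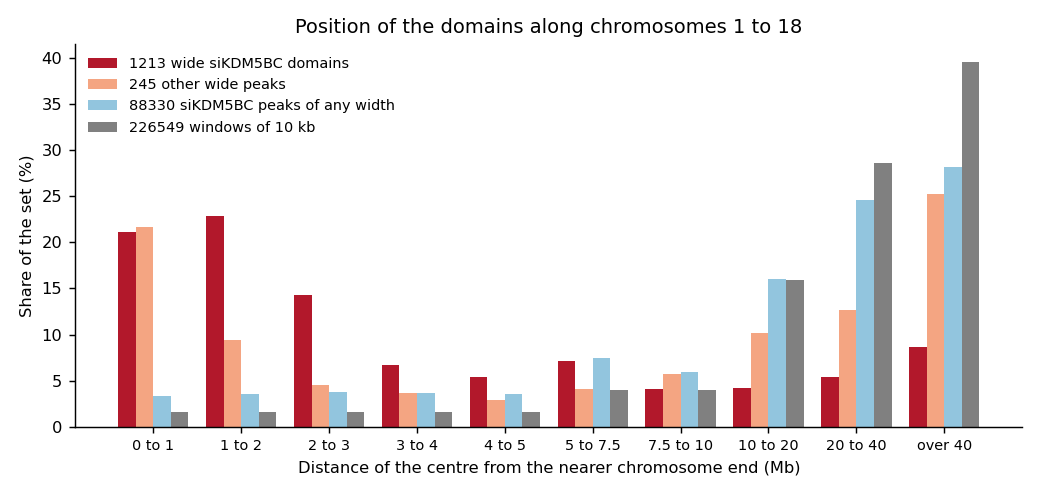
Share of each set (percent) by distance of its centre from the nearer chromosome end, in bins of Mb, for the domains, the other wide peaks, all siKDM5BC replicate 1 peaks and 10 kb windows of chromosomes 1 to 18. The domains are most frequent within the first 3 Mb, with 21.1%, 22.9% and 14.3% in the first 3 bins, where each bin holds under 2% of the windows.

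Domains also came in runs. With 50 kb as the largest gap, 826 domains formed 219 runs and 387 stood alone, so neighbouring domains are not independent. The run with the most members, on chromosome 16 from 78406237 to 79539249, held 26 domains over 597584 bp and took in IRX4, a ventricular transcription factor gene, the telomerase gene TERT, the dopamine transporter gene SLC6A3, SLC12A7 and NKD2. A run on chromosome 1 from 273578291 to 274091844 held 16 domains along the retinoid receptor gene RXRA and the collagen gene COL5A1. A run of 14 on chromosome 6 from 64711977 to 65143874 met PRDM16, ARHGEF16 and MEGF6, and 13 domains on chromosome 18 from 1123733 to 1443350 lay in PTPRN2.

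Fewer of the domains than of the other wide peaks held a gene end. An end of a protein-coding gene lay in 39.7% of the domains, against 204 of 245 other wide peaks (83.3%) and 12.4% of windows. A coding gene body met 68.2% of the domains, against 93.5% of the other wide peaks, 55.2% of all siKDM5BC replicate 1 peaks and 53.0% of windows. Of the domains, 51.9% were over 5 kb away from the closest end of any coding gene, against 13.1% of the other wide peaks, 68.8% of all peaks and 79.2% of windows. The annotation gave no strand here, so starts and ends of genes were treated alike. Within 1 kb of gene ends, siKDM5BC replicate 2 covered 91.6% of domain bases and 89.8% elsewhere. Untreated 4-cell peaks covered 43.5% and 28.3% near gene ends and 21.3% and 9.79% elsewhere, and blastocyst peaks 37.3% and 37.8% near gene ends and 11.7% and 12.02% elsewhere. In MII oocytes the values were close, with 36.3% and 55.4% near gene ends and 35.8% and 55.5% elsewhere.

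**Figure D3:**
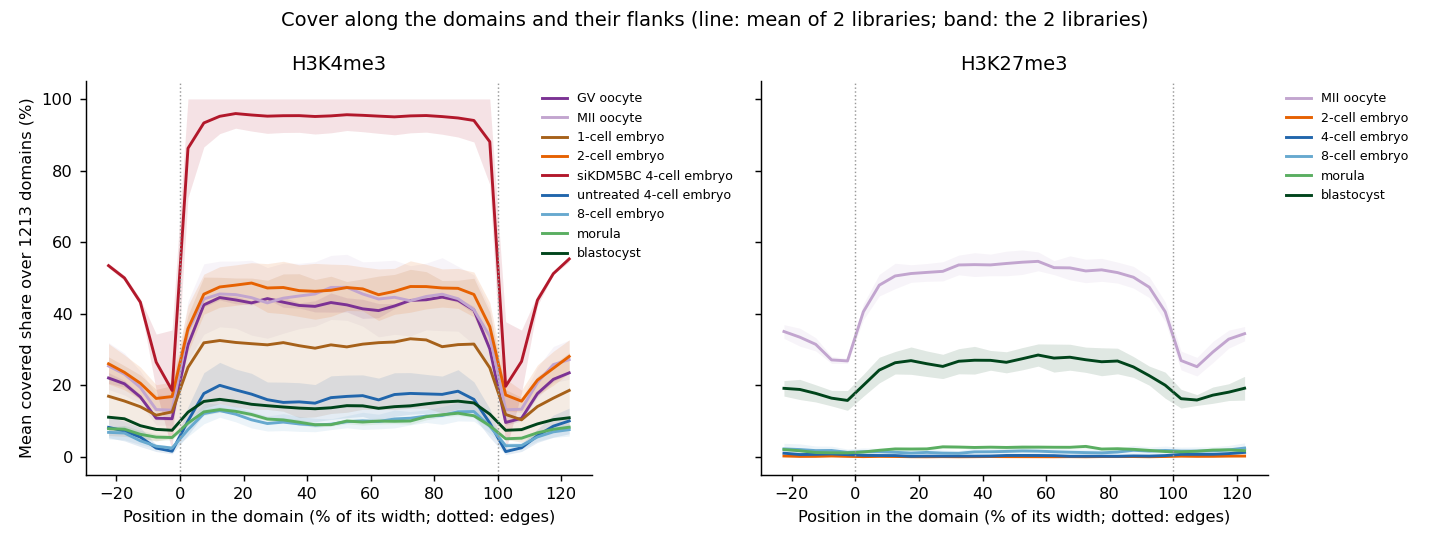
Mean cover (percent) of 1213 domains along their length and over flanks on either side, with each domain scaled to 100% of its width and dotted lines at its edges, for H3K4me3 (left) and H3K27me3 (right). Lines are the mean of 2 libraries and bands span the 2 libraries; GV, MII and 2-cell H3K4me3 and MII and blastocyst H3K27me3 rise inside the edges that siKDM5BC replicate 1 set and stay level across the interior.

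Earlier H3K4me3 occupied most of each domain when its libraries were joined. Median cover was 40.1% and 43.2% in GV oocytes, 33.5% and 54.2% in MII oocytes, 8.62% and 48.8% in 1-cell embryos and 52.4% and 37.8% in 2-cell embryos. From the 8-cell stage on it was low, at 5.73% and 10.4% in 8-cell embryos, 4.33% and 6.07% in morulae and 7.56% and 7.57% in blastocysts. The 8 libraries from GV oocyte to 2-cell embryo together covered a median of 93.8% of a domain, and every one of the 1213 to 50% or more, while covering 14.4% of chromosomes 1 to 18. The 6 libraries from the 8-cell stage to the blastocyst together covered a median of 21.7%, and 132 domains to 50% or more, with 10.9% of the chromosomes. In 1094 domains at least 1 of the 8 earlier libraries reached 50%, and 384 domains stayed under 10% in each of the 6 later ones. These 2 counts have no background value to set beside them.

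Counts of domains covered to 50% or more in both libraries of a stage followed the same course. They were 215 in GV oocytes (10 kb windows called the same way: 0.32%), 157 in MII oocytes (0.207%), 24 in 1-cell embryos (0.184%), 271 in 2-cell embryos (0.625%), 6 in 8-cell embryos (0.169%), 31 in morulae (1.24%) and 57 in blastocysts (1.46%). Single libraries moved several counts: the 1-cell count was 581 without replicate 1, the MII count 723 without replicate 1, the 2-cell count 664 without replicate 2, the 8-cell count 11 without replicate 1, and the GV count 436 and 359 without replicates 1 and 2. By the rule, all 1213 reached it in siKDM5BC (windows: 3.44%), against 0 in untreated 4-cell embryos (0.0463%), from which nothing is read. Relative to the share of the chromosomes covered, the domains were 9.39 and 14.4 times as covered in GV, 13.3 and 12.9 times in MII, 3.85 and 8.02 times in 1-cell and 9.46 and 8.27 times in 2-cell, 13.03 and 12.8 times in siKDM5BC, 9.45 and 8.24 times in untreated 4-cell, 2.90 and 3.67 times in 8-cell, 1.75 and 1.80 times in morula and 2.76 times in both blastocyst libraries.

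H3K4me3 cover of the domains was lower in 8-cell than in 2-cell embryos. Both 8-cell values lay below both 2-cell values in 1116 of 1213 domains, where 33.3% of all siKDM5BC replicate 1 peaks did so, and above them in 8 domains (6.22%). Of the 251 wide peaks that did not meet the rule, 75.3% lay below and 5.98% above, so much of the fall was shared by them. The median difference over the domains was −35.0 percentage points, against −27.5 over those wide peaks and −17.3 over the 79904 features tested. With limma across those features, 176 domains (14.5%) fell (all features: 7.84%) and 0 rose (1.57%) at an adjusted p under 0.05. Of the same 251 wide peaks, 28 fell and 2 rose. The direction depended on weak peaks: of peaks meeting the domains, 20.02% and 17.7% in the 8-cell libraries had a −log10 q of 3 or more, against 0.307% and 0.817% in 2-cell libraries, and with that minimum 0 domains fell and 141 of 907 tested rose (15.5%; all features: 21.3%). Without 8-cell replicate 1 there were 11 calls, without 8-cell replicate 2 21, without 2-cell replicate 1 92, without 1-cell replicate 1 546, without 1-cell replicate 2 535, and without a morula or blastocyst library 74 to 76.

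The largest fall past the threshold was in FAM83F (chromosome 5, 8314763 to 8326609). No base of it was under 8-cell peaks in either library, against 93.4% and 79.4% in 2-cell embryos (difference −86.4 points, SE 15.4, limma adjusted p = 0.011). In TNS3, which encodes a focal adhesion protein (chromosome 18, 48986005 to 49000348), cover was 0% and 6.60% in 8-cell embryos, against 89.9% and 84.9% in 2-cell embryos (difference −84.1, SE 14.2, limma adjusted p = 0.00853). The 6 domains with the largest falls, these and those described next, were chosen for this fall. The gap between their 2-cell and 8-cell values is thus no further support.

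A domain 88071 bp from the thrombomodulin gene THBD (chromosome 17, 30119889 to 30131798) was covered by H3K4me3 almost only in 1-cell, 2-cell and siKDM5BC embryos. It had 100% and 54.2% in siKDM5BC, against 1.89% and 0% in untreated 4-cell embryos. Cover was 0% and 3.59% in GV oocytes, 16.0% and 16.7% in MII oocytes, 58.3% and 73.4% in 1-cell, 87.1% and 80.1% in 2-cell and 0% and 2.75% in 8-cell embryos. Both 8-cell values were lower than every MII, 1-cell and 2-cell value (8-cell minus 2-cell −82.2 points, SE 8.77, limma adjusted p = 0.000748), and no morula or blastocyst H3K4me3 peak met it. The domain was chosen for its 2-cell to 8-cell fall and, by the rule, for its siKDM5BC and untreated values. Those values are thus no further support. H3K27me3 covered 55.3% and 56.9% of it in MII oocytes and 2.19% and 2.00% in blastocysts.

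The remaining 3 of the 6 largest falls were 4917 bp from YWHAQ, which encodes a 14-3-3 protein, in LRRC75A, and in COL4A1, a basement membrane collagen gene. Their differences were −76.4, −73.4 and −73.2 points, with limma adjusted p of 0.0146, 0.0154 and 0.0192. In COL4A1 (chromosome 11, 76881406 to 76893850), 8-cell cover was 0% and 7.55%, against 85.1% and 68.8% in 2-cell embryos. H3K27me3 covered 76.6% and 66.1% of that domain in blastocysts, against 99.7% and 87.0% in MII oocytes. PTPRF was the 1 domain of the 8 widest that fell, with 3.64% and 14.3% in 8-cell embryos, against 65.4% and 51.8% in 2-cell embryos (difference −49.6, SE 13.1, limma adjusted p = 0.049).

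Between MII oocytes and 2-cell embryos few domains changed. With limma, 28 rose (all features: 5.64%) and 2 fell (1.69%), shares below those of all features, and the median difference was 0.21 points, against 8.51 over all features. This comparison shares its 2-cell libraries with the one between 8-cell and 2-cell embryos. Without 1-cell replicate 1 or 2, 92 or 86 rose and 19 or 18 fell, without MII replicate 1 14 rose and 12 fell, and without an 8-cell, morula or blastocyst library 13 to 15 rose and 1 fell. With the arcsine scale 12 domains passed, and 0 did so once peaks under a −log10 q of 3 were left out.

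In blastocysts compared with 8-cell embryos, 14 domains rose (all features: 2.82%) and 0 fell (0.552%), with a median difference of 0. Without 1 blastocyst or 8-cell library 0 to 3 passed, so the calls depended on each of those 4 libraries. In blastocysts compared with MII oocytes, 194 domains fell (all features: 4.49%) and 18 rose (8.89%), with a median difference of −33.8 points, against 0 over all features. Both MII values were above both blastocyst values in 982 domains (81.0%; all peaks: 20.6%). Of the 251 wide peaks that did not meet the rule, 36.7% had this order, and with limma 11 fell and 24 rose. Here too the direction turned with peak strength: 0 fell and 531 rose at −log10 q of 3 or more (58.5% of those tested; all features: 63.9% rose), and 57 fell and 80 rose at a fold of 3.5 or more (4.70% and 6.60%; all features: 1.46% and 20.6%). Without blastocyst replicate 1 the counts were 6 and 6, without blastocyst replicate 2 5 and 7, and without MII replicate 2 45 and 20.

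A minority of domains was covered by H3K4me3 again in blastocysts. The 4 with the highest blastocyst cover, chosen for that value, met SH3TC1 (chromosome 8, 2880059 to 2892577), UBALD2 (chromosome 12, 5206512 to 5217279), the SOCS box adaptor gene SPSB1 (chromosome 6, 69717075 to 69728387) and the endosomal sorting gene VPS37B (chromosome 14, 29962505 to 29973046). UBALD2 had 64.5% and 49.4% in 2-cell, 26.5% and 18.8% in untreated 4-cell and 49.6% and 60.02% in 8-cell embryos, 97.3% and 94.7% in morulae and 99.8% and 100% in blastocysts. In VPS37B the values were 56.8% and 64.7% in 2-cell, 23.2% and 22.8% in untreated 4-cell and 24.2% and 22.4% in 8-cell embryos, 67.5% and 79.5% in morulae and 92.3% and 100% in blastocysts. Their blastocyst and untreated 4-cell values are those they were chosen for. Neither had an H3K27me3 peak in MII oocytes.

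At the other end, the 4 domains with the lowest mean cover from GV oocyte to 2-cell embryo still held some early H3K4me3. In COX10, which encodes an enzyme of heme A synthesis (chromosome 12, 58028854 to 58038911), cover was 0% in both GV libraries, 0% and 5.65% in MII, 24.9% and 28.8% in 1-cell and 44.6% and 21.8% in 2-cell libraries. A domain 44394 bp from RXRA (chromosome 1, 273641828 to 273654447) had 15.5% and 10.2% in GV, 1.32% and 17.0% in MII, 0% and 30.1% in 1-cell and 29.8% and 3.86% in 2-cell libraries. The mitotic checkpoint gene MAD1L1 (chromosome 3, 1345562 to 1355922) had 0% and 25.6% in GV, 12.2% and 24.2% in MII, 0% and 38.1% in 1-cell and 17.9% and 8.07% in 2-cell libraries, and no H3K27me3 peak in any library. No domain of the 1213 was under 10% in all 8 early libraries.

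In MII oocytes the domains were broadly covered by H3K27me3. Median H3K27me3 cover was 60.9% and 51.0%, against 30.1% and 23.8% for the other wide peaks, and 19.2 and 19.97 times the share of the chromosomes. In both MII libraries 596 domains (49.1%) reached 50%, against 74 of 245 other wide peaks and 1.18% of windows. Domains near chromosome ends had median MII H3K27me3 cover of 69.5% and 60.8%, and the 358 elsewhere 36.6% and 29.4%. Windows of 10 kb also differed by position, with mean cover of 16.5% and 14.5% near chromosome ends and 1.88% and 1.61% elsewhere. Higher MII H3K27me3 near chromosome ends was thus not particular to the domains, and the comparisons with whole chromosomes above do not allow for position. Near gene ends the bases were less covered, at 42.7% and 37.5%, than elsewhere in the domains, at 59.95% and 53.9%. H3K27me3 covered 67.2% and 60.6% of the bases that also carried MII H3K4me3 and 53.7% and 42.7% of those that did not, pairing libraries by number only. In 100 domains both marks reached 50% in all 4 MII libraries (8.24%; windows: 0.131%). The marks come from separate pools of oocytes and the lists do not tell whether they share a nucleosome.

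**Figure D4:**
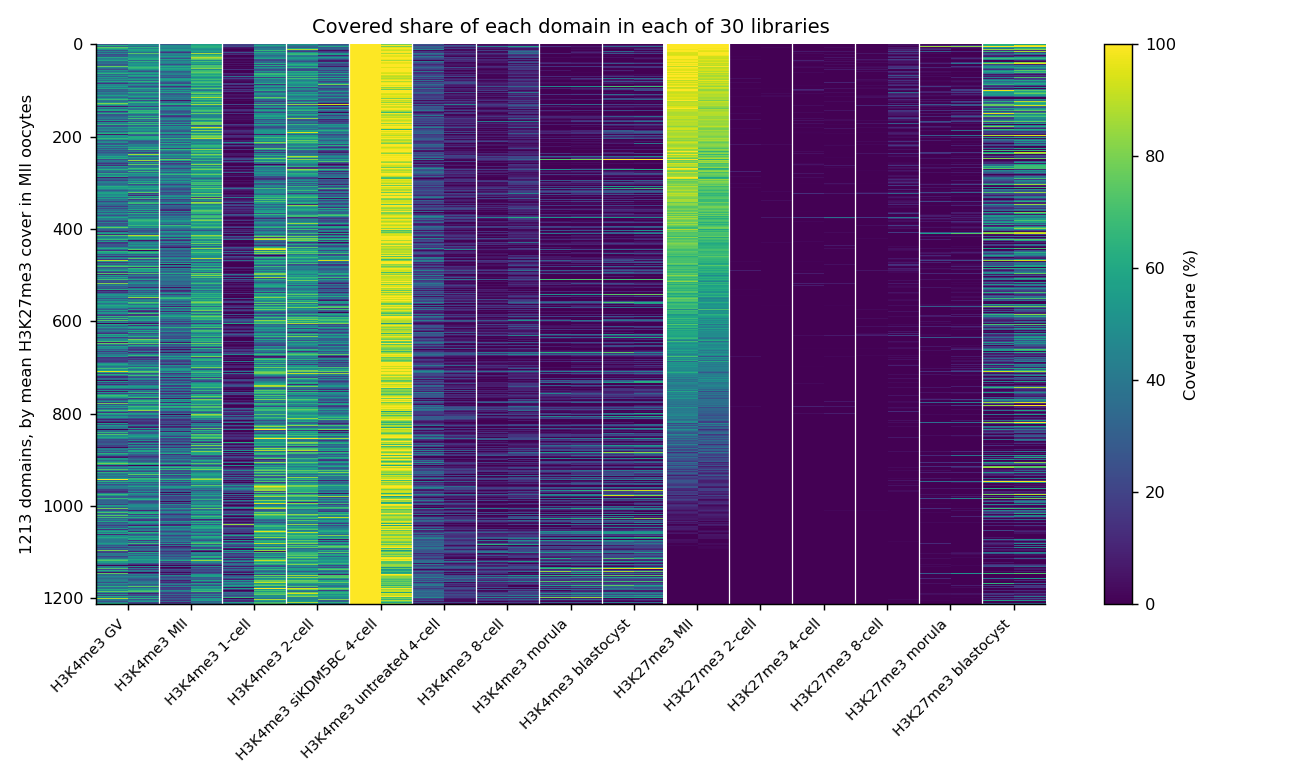
Cover (percent, colour) of each of 1213 domains (down the page, ordered by mean H3K27me3 cover in MII oocytes, highest at the top) in each of 30 libraries, with white lines between stages and replicate 1 left of replicate 2. Intermediate H3K4me3 is seen in the GV, MII, 2-cell and 1-cell replicate 2 columns along all ranks, 1-cell replicate 1 is low (median 8.62%), and blastocyst H3K27me3 is concentrated toward the top.

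The highest MII H3K27me3 cover, 100% in both libraries, was seen in RXRA (chromosome 1, 273735042 to 273746812), in COL18A1, a basement membrane collagen gene (chromosome 13, 207906590 to 207932319), in the mesenchymal transcription factor gene TWIST2 (chromosome 15, 138238223 to 138261751) and 127767 bp from the neural factor gene SOX1 (chromosome 11, 77845307 to 77858003). These were chosen for that value. All 4 had 0% H3K27me3 in both 2-cell libraries. In blastocysts they differed, with 62.9% and 58.9% in TWIST2, 40.6% and 50.3% near SOX1, 24.4% and 33.7% in COL18A1 and 0% in both libraries in RXRA. RXRA carried 46.0% and 35.7% H3K4me3 cover in blastocysts instead, and the TWIST2 domain none.

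H3K27me3 was lost from the domains by the 2-cell stage, when its peaks were scarce on all of chromosomes 1 to 18. The 2-cell lists held 3108 and 2312 peaks and covered 0.0872% and 0.0553% of these chromosomes. MII lists held 48261 and 51680 peaks and covered 3.04% and 2.64%. In 2-cell embryos the domains were 1.54 and 1.31 times as covered as the chromosomes, so the near absence was not particular to them. Both MII values were above both 2-cell values in 1046 domains (all peaks: 15.8%). Of the 1213, 1179 had an H3K27me3 base in at least 1 of 12 libraries and were tested, and 34 had none. With limma, 979 (83.0%) fell in 2-cell embryos compared with MII oocytes (all features: 33.3%) and 0 rose (0.00571%). Of the 227 tested wide peaks that did not meet the rule, 143 fell and 0 rose. The median difference over the tested domains was −58.0 points, and −14.1 over the 34997 features tested. Median 2-cell cover was 0% in both libraries, with no domain above 9.65%, and 1148 domains had no 2-cell peak base at all. The 8 widest domains all fell, led by SLC12A7 and NKD2 with 0.532% and 0% in 2-cell embryos, against 94.5% and 95.0% in MII oocytes (difference −94.5, SE 1.59, limma adjusted p = 8.2e-09). With −log10 q of 3 or more, 287 of 791 tested fell (36.3%; all features: 15.3%).

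Between the 2-cell and 4-cell stages 0 domains rose (all features: 0.214%) and 0 fell (0%) with limma. No other tool was run. In untreated 4-cell embryos median H3K27me3 cover was 0% in both libraries, and the domains were 0.284 and 0.313 times as covered as the chromosomes. No domain reached 50% H3K27me3 cover in 2-cell, 4-cell or 8-cell embryos (windows: 0.0053%, 0.0168% and 0.0115%), and 3 did in morulae (0.026%). H3K27me3 was not profiled in siKDM5BC embryos among these samples.

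H3K27me3 returned to part of the domains in blastocysts. Median cover was 16.0% and 24.3%, and 149 domains reached 50% in both libraries (windows: 0.859%; other wide peaks: 49 of 245), and 268 without replicate 1. With limma, 672 domains rose in blastocysts compared with morulae (all features: 22.3%) and 0 fell (0.00571%), and both blastocyst values were above both morula values in 938 (all peaks: 12.3%). Compared with MII oocytes, 748 domains fell (all features: 25.3%) and 129 rose (15.8%), and both MII values were above both blastocyst values in 807 (all peaks: 11.4%). Of the 227 tested wide peaks that did not meet the rule, 118 rose and 0 fell in blastocysts compared with morulae. Compared with MII oocytes, 87 of those 227 fell and 63 rose. Of blastocyst peaks meeting domains, 4.06% and 4.18% had −log10 q of 3 or more, against 5.41% and 4.55% of all blastocyst peaks, and with that minimum 25 domains rose (3.16% of those tested; all features: 12.1%). With a fold of 3.5 or more 180 rose and 1 fell (16.4% and 0.0909%; all features: 10.5% and 0.0298%).

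Blastocyst H3K27me3 reached 100% in both libraries in EVX1, a homeobox gene of the posterior embryo (chromosome 18, 45320591 to 45336101), in domains 99427 bp from TMEM18 and 345307 bp from FAM217B, and in 1 domain near an unnamed locus. These 4 were chosen for that value and are not all the domains at 100%, which include 1 at FOXC1. EVX1 was covered to 92.1% and 87.1% already in morulae and rose further in blastocysts (difference 10.4, SE 2.04, limma adjusted p = 0.00881). The domain near TMEM18 (chromosome 3, 132531110 to 132542112) had 31.1% and 12.4% in morulae, and its rise was larger (difference 78.2, SE 5.65, limma adjusted p = 5.42e-05). The blastocyst values of both domains chose them, so these rises are no further support. Both had lost the mark completely at the 2-cell stage, where EVX1 had 0% in both libraries, against 72.6% and 68.3% in MII oocytes.

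The mark in MII oocytes went with the later state of a domain. The 596 domains covered to 50% or more by H3K27me3 in both MII libraries had median blastocyst H3K27me3 cover of 25.5% and 34.8%, against 1.97% and 6.65% for the 198 under 10% in both MII libraries. The 419 intermediate domains had 11.5% and 18.7%. Blastocyst H3K4me3 had the opposite order, with medians of 4.41% and 4.39% in the 596, 9.18% and 9.57% in the 419 and 19.2% in both libraries in the 198. Position went with the same values. Median blastocyst H3K27me3 cover was 22.0% and 31.0% in domains near chromosome ends, against 5.45% and 9.17% elsewhere. Median blastocyst H3K4me3 cover was 6.15% and 6.38% near ends, against 11.6% and 12.2% elsewhere. Whether the MII mark and position differ in this was not tested. Of the 596, 106 reached 50% H3K27me3 and 11 reached 50% H3K4me3 in both blastocyst libraries. These are 8.74% and 0.907% of the 1213 domains, against 0.181% and 0.0388% of all windows. Of the 2676 windows that reached 50% H3K27me3 in both MII libraries, 409 and 88 did so. Among regions high in MII H3K27me3, the domains were thus close to windows for blastocyst H3K27me3 and below them for H3K4me3. In blastocysts 1 domain reached 50% for both marks in all 4 libraries (windows: 0.108%). Across the 1213 domains, Spearman's rho of mean MII H3K27me3 was 0.42 with blastocyst H3K27me3, −0.31 with blastocyst H3K4me3, −0.26 with 2-cell H3K4me3 and 0.37 with MII H3K4me3. H3K4me3 at the 8-cell stage and in blastocysts had a rho of 0.55. These are descriptions over neighbouring regions that share libraries and base composition, with no test.

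Developmental regulators were among the genes whose ends lay at the domains. Of 18722 coding genes on chromosomes 1 to 18, 682 (3.64%) had an end within 1 kb of a domain. The count was 12 of 109 developmental transcription factors (ALX4, EVX1, FOXC1, FOXC2, FOXQ1, GATA3, GATA5, HES5, IRX4, LHX5, SOX10 and ZIC4), 5 of 57 signalling ligands (BMP7, FGF17, FGF5, FGF9 and WNT7B), 5 of 30 imprinted genes (ASCL2, CDKN1C, DLK1, PHLDA2 and SLC22A18) and 2 of 36 HOX genes (HOXC10 and HOXC11). It was 2 of 19 trophectoderm genes (DLX3 and GATA3), 1 of 25 pluripotency genes (UTF1), 1 of 15 hypoblast genes (COL4A2), 1 of 19 H3K4 methylation enzymes (WDR5) and 1 of 13 DNA methylation genes (DNMT3A). None of 29 oocyte and maternal-effect, 27 Polycomb, 56 ribosomal protein, 16 cumulus and granulosa and 11 sperm genes had one. The lists were not tested for enrichment, and several of these genes share a run of domains.

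The 12 developmental factor genes lay at 13 domains. With limma, 2 of the 13 fell in H3K4me3 in 8-cell compared with 2-cell embryos (ALX4 and ZIC4), 12 fell in H3K27me3 in 2-cell embryos compared with MII oocytes and 11 rose in H3K27me3 in blastocysts compared with morulae, with median differences of −40.6, −45.0 and 29.6 points. Among all domains tested 14.5%, 83.0% and 57.0% were called in these directions, and among all features 7.84%, 33.3% and 22.3%. ALX4, a limb and craniofacial homeobox gene (chromosome 2, 18075296 to 18086104), had 91.2% H3K4me3 cover in siKDM5BC replicate 2, against 36.2% and 3.42% in untreated 4-cell embryos. It had 0% in both 8-cell libraries, against 71.6% and 64.0% in 2-cell embryos (difference −67.8, SE 12.8, limma adjusted p = 0.0142). Its MII H3K27me3 cover was 1.99% and 0%, the lowest of the group. ZIC4, a zinc finger factor gene of the hindbrain, is described because it was the other domain that fell, a choice made after its values were seen (chromosome 13, 87719425 to 87734369). Its 8-cell cover was 32.2% and 30.6%, against 69.0% and 78.4% in 2-cell embryos (difference −42.4, SE 10.04, limma adjusted p = 0.034), and blastocyst cover was 40.1% and 42.3%.

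GATA3, a trophectoderm regulator (domain on chromosome 10, 63379089 to 63401225), was among the few with high cover before and after the 4-cell stage. H3K4me3 covered 94.1% in siKDM5BC replicate 2, against 48.0% and 37.9% in untreated 4-cell embryos. It covered 69.0% and 57.1% in GV oocytes, 54.5% and 55.8% in 2-cell and 28.2% and 22.6% in 8-cell embryos, 69.3% and 71.9% in morulae and 69.2% and 71.4% in blastocysts. H3K27me3 fell to 0% in both 2-cell libraries, against 65.4% and 64.2% in MII oocytes (difference −64.8, SE 1.91, limma adjusted p = 2.29e-07), and rose to 41.1% and 46.1% in blastocysts, against 4.91% and 3.23% in morulae (difference 39.5, SE 1.91, limma adjusted p = 7.05e-06). DLX3, another trophectoderm list gene (chromosome 12, 26175381 to 26186130), had 61.9% and 58.9% H3K4me3 in blastocysts and only 4.10% and 10.1% H3K27me3.

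Among the other factors, FOXC1 met a pair of domains on chromosome 7 (817775 to 839164 and 840436 to 856644). Blastocyst H3K27me3 covered 88.4% and 83.0% of the first and 100% of the second in both libraries, above the MII values of 42.9% and 28.8%, and of 26.0% and 8.54%. The domain at FOXC2, a mesenchymal and lymphatic factor gene (chromosome 6, 2542148 to 2565236), also met FOXL1 and MTHFSD. Its H3K27me3 cover rose to 32.5% and 37.6% in blastocysts, against 1.97% and 4.47% in morulae (difference 31.8, SE 2.45, limma adjusted p = 7.65e-05), and its blastocyst H3K4me3 cover was 28.8% and 40.9%.

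**Figure D5:**
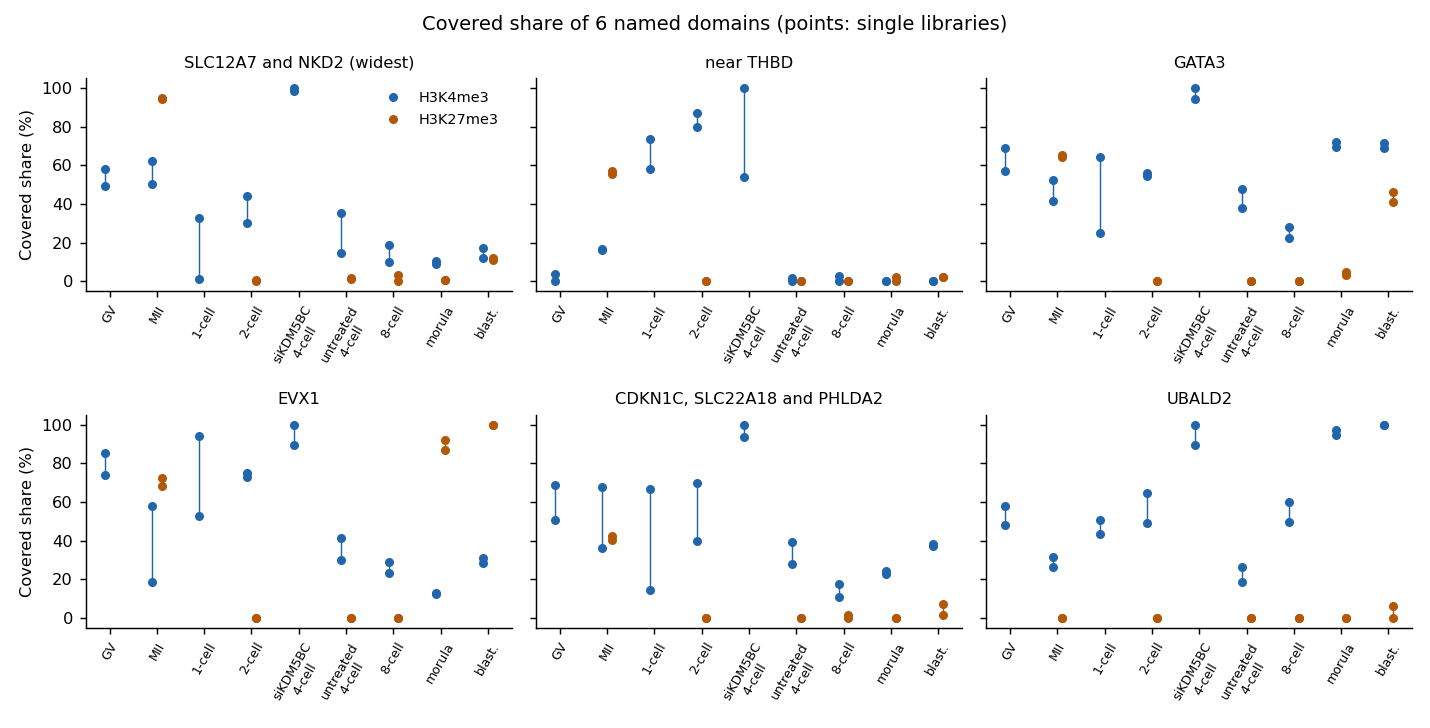
Cover (percent) of 6 named domains in each library by stage, with H3K4me3 in blue, H3K27me3 in orange and a line joining the 2 libraries of a group. GATA3 and UBALD2 have high H3K4me3 again in morulae and blastocysts, EVX1 reaches 100% H3K27me3 in blastocysts, and the domain near THBD has more than 20% H3K4me3 cover only in 1-cell, 2-cell and siKDM5BC embryos.

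The 5 imprinted genes lay at 3 domains. CDKN1C, a cell cycle inhibitor, SLC22A18 and the placental growth regulator PHLDA2 shared 1 domain of 52534 bp (chromosome 2, 2016368 to 2068901). H3K4me3 covered 93.5% of it in siKDM5BC replicate 2, against 39.3% and 27.8% in untreated 4-cell embryos, and 70.1% and 39.9% in 2-cell embryos. Its 8-cell cover was 10.6% and 17.7%, a difference of −40.8 points from the 2-cell stage that missed the threshold (SE 18.04, limma adjusted p = 0.208). ASCL2, a trophoblast factor gene (chromosome 2, 1548430 to 1569082), and the Notch ligand homologue DLK1 (chromosome 7, 121558391 to 121574904) had 94.8% and 83.6%, and 87.8% and 88.5%, H3K27me3 in MII oocytes. All 3 domains fell in H3K27me3 by the 2-cell stage. In blastocysts ASCL2 had 63.8% and 73.8% and DLK1 60.6% and 60.4%, both risen from the morula, while the CDKN1C domain had 1.48% and 7.003%.

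Of the 6 domains at signalling ligand genes, FGF17 (chromosome 14, 6307467 to 6318025) fell in H3K4me3, with 8.34% and 13.7% in 8-cell, against 64.4% and 52.7% in 2-cell embryos (difference −47.5, SE 12.4, limma adjusted p = 0.0474). In H3K27me3, 4 of the 6 fell in 2-cell embryos compared with MII oocytes and 5 rose in blastocysts compared with morulae, where 83.0% and 57.0% of all domains tested and 33.3% and 22.3% of all features did so. FGF9 (chromosome 11, 1550816 to 1562753) had 9.84% and 6.69% in MII oocytes, 12.7% and 3.28% in morulae and 68.1% and 66.4% in blastocysts (blastocyst minus morula 59.2, SE 3.10, limma adjusted p = 1.09e-05). FGF5, which is induced in the epiblast as it leaves naive pluripotency in mouse, met a pair of domains on chromosome 8. The one at 137551874 to 137564873 had 54.3% and 79.3% blastocyst H3K27me3, and the one at 137532140 to 137542381 had 25.6% and 18.7%. The domain of HOXC10 and HOXC11 (chromosome 5, 19185055 to 19200179) had 44.0% and 38.4% H3K4me3 and 29.6% and 28.1% H3K27me3 in blastocysts.

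The DNA methylation and H3K4 enzyme lists had 1 domain each. DNMT3A, a de novo DNA methyltransferase gene (chromosome 3, 113502095 to 113517716), had 100% in siKDM5BC replicate 2, against 20.3% and 15.7% in untreated 4-cell embryos, and 75.5% and 70.5% in blastocysts. Its H3K27me3 cover was 2.29% and 6.41% in blastocysts, against 34.9% and 34.1% in MII oocytes. A domain 463 bp from WDR5, a subunit of H3K4 methyltransferases (chromosome 1, 273578291 to 273589202), had 84.7% in siKDM5BC replicate 2, against 29.2% and 11.1% in untreated 4-cell embryos, with 34.7% and 39.6% in blastocysts and no H3K27me3 after the MII stage. In the pluripotency list, the UTF1 domain (chromosome 14, 141176726 to 141221554) had 34.5% and 32.1% H3K4me3 in blastocysts, and in the hypoblast list COL4A2 (chromosome 11, 77123262 to 77172334) had 9.10% and 11.4%.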

How the data were processed

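The data were 30 deposited lists of broad peaks, 18 for H3K4me3 and 12 for H3K27me3, with 2 libraries in each of 15 groups. Per the submitters' processing notes, the authors used Bowtie2 2.4.1, MACS2 and the susScr11 build; their settings are not given in the sources used here. Each deposited list gives per peak a fold enrichment over background and −log10 p and −log10 q, as the authors' peak caller wrote them. Peaks were listed per library, and read totals are not given in the lists, so depth and counting error are unknown. Weak peaks enter or leave a list with its threshold and depth, which changes cover.

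Cover was computed as the percent of a region's bases under peaks. Tests used limma 3.58.1 in R 4.3.3 (moderated, with the variance trended on the mean) over every siKDM5BC replicate 1 peak on chromosomes 1 to 18 with cover in at least 1 fitted library, one mean per stage, two-sided, with Benjamini-Hochberg adjustment over all features and a threshold of 0.05. The H3K4me3 fit held 14 libraries and left out both 4-cell groups that chose the domains; the H3K27me3 fit held all 12. Comparisons share libraries of the 2-cell, 8-cell, MII and blastocyst stages. Spread was pooled over all stages of a mark. For H3K27me3, 94.6%, 87.7%, 61.8% and 57.2% of domains were at 0% in both 2-cell, 4-cell, 8-cell and morula libraries. Such stages add no spread, so H3K27me3 SEs and p-values can be too small for the stages that vary. The script was tested on simulated data. Gene positions came from RefSeq (Sscrofa11.1), without strand.

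Named domains were the 8 widest, the 6 with the largest fall in H3K4me3 between the 2-cell and 8-cell stages past the threshold, the 4 highest in blastocyst H3K4me3, MII H3K27me3 and blastocyst H3K27me3, the 4 lowest in early H3K4me3, and domains within 1 kb of an end of a gene in 14 lists, described for at most 4 genes a list in symbol order. Domains, lists and tests were chosen with earlier results of these data known. Chromosome X and unplaced sequences were left out of the tests. Alternatives covered thresholds, peak strength, scale, filter, features fitted, replicate block and each library left out.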

Additional observations from a re-analysis of the deposited data

Results flagged for a closer look

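Outside chromosomes 1 to 18, 30 regions of chromosome X and 80 regions of unplaced sequences met the same rule in the 4-cell lists, and no comparison above used them. On chromosome X, median H3K4me3 cover was 55.0% and 53.3% in GV oocytes, 37.7% and 63.4% in MII oocytes, 0% and 42.3% in 1-cell, 35.1% and 24.1% in 2-cell and 5.24% and 9.86% in 8-cell embryos, and 17.5% and 16.7% in blastocysts. Median H3K27me3 cover of the same regions was 28.0% and 43.5% in blastocysts, against 62.5% and 56.6% in MII oocytes. These values were not tested.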

How the results depend on the processing

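Cover depends on which weak peaks a list holds, depth is unknown, and 2 libraries a group leave the spread to be pooled over stages; where 1 library was left out, the remaining one was assumed to vary like the other groups. The cause of the changes below was not tested. Of all alternative values, 163 counts were within 1.5 times the reported count, 98 were not and 4 reversed in the balance of lower and higher calls. A count within that tolerance can hide a change of balance: 2-cell against MII had 13 lower and 14 higher at a fold of at least 3.5, against 2 and 28 as reported.

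The number of domains was 4737 at a width of 5 kb, 238 at 20 kb, 591 with untreated cover under 25%, 699 with peaks of −log10 q of at least 3 and 3759 with peaks under 3 kb apart joined. Domains covered in both libraries at a limit of 25% and of 75% numbered 881 and 6 (GV H3K4me3), 860 and 2 (MII), 199 and 0 (1-cell), 920 and 10 (2-cell), 56 and 0 (8-cell), 131 and 7 (morula) and 209 and 19 (blastocyst). For H3K27me3 they numbered 425 and 31 in blastocysts, 14 at 25% in morulae and 285 at 75% in MII oocytes. Joining peaks gave 659 (GV), 814 (MII), 137 (1-cell), 896 (2-cell), 20 (8-cell), 48 (morula) and 97 (blastocyst) for H3K4me3 and 319 (blastocyst) and 10 (morula) for H3K27me3. With −log10 q of at least 3, 0 domains were left in GV, MII, 1-cell and 2-cell H3K4me3, and 166 (MII), 17 (blastocyst) and 0 (morula) in H3K27me3. With a fold of at least 3.5 there were 16 (GV), 3 (MII), 0 (1-cell) and 9 (2-cell) for H3K4me3 and 52 for blastocyst H3K27me3.

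Calls in 8-cell against 2-cell H3K4me3 numbered 141 (reversed) at −log10 q of at least 3, 27 at a fold of at least 3.5 and 672 when only features of 10 kb or wider were fitted. Calls in 2-cell against MII numbered 12 on the arcsine scale, 0 at the q minimum and 19 with wide features only. Calls in blastocyst against 8-cell numbered 363, 46 and 22 at the q minimum, the fold minimum and with wide features only, and those in blastocyst against MII 531 (reversed), 137 (reversed) and 647, with 321 on the arcsine scale. For H3K27me3 the q minimum gave 287 in 2-cell against MII, 25 in blastocyst against morula and 324 in blastocyst against MII, and the fold minimum gave 181 in blastocyst against morula.

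Replicate numbers did not pair the libraries: correlations of deviations ran from −0.019 to 0.042 over 21 H3K4me3 stage pairs and from −0.036 to 0.022 over 15 H3K27me3 pairs. With a replicate block, 133, 19, 13 and 170 domains changed in the 4 H3K4me3 comparisons (8-cell against 2-cell, 2-cell against MII, blastocyst against 8-cell, blastocyst against MII), and 969, 0, 636 and 865 in the 4 H3K27me3 comparisons (2-cell against MII, 4-cell against 2-cell, blastocyst against morula, blastocyst against MII).

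Leaving out each library in turn, the number of domains ran from 1127 to 1408. Counts covered to 50% ran from 359 to 436 (GV), 185 to 723 (MII), 26 to 581 (1-cell), 329 to 664 (2-cell), 7 to 11 (8-cell), 33 to 36 (morula) and 67 to 70 (blastocyst) for H3K4me3, and 614 to 698 (MII), 3 to 5 (morula) and 165 to 268 (blastocyst) for H3K27me3. Calls ran from 11 to 546 in 8-cell against 2-cell, 14 to 111 in 2-cell against MII, 0 to 31 in blastocyst against 8-cell and 12 to 548 in blastocyst against MII, where 12 without blastocyst replicate 2 was reversed. For H3K27me3 they ran from 920 to 1010, 0 to 0, 489 to 812 and 834 to 941.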
